A study of Rattus norvegicus with 24 samples.

Results

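Estradiol benzoate and testosterone were compared directly with each other in the mesenteric artery of the ovariectomised rat, using the 16 arrays of the 8 hormone-treated animals among 24 arrays of 12 animals. All animals were female Sprague Dawley rats whose ovaries were removed at 3 weeks of age, and all recovered for 2 weeks. Daily intraperitoneal injection for 4 days followed, and the arteries were taken at 5.5 weeks of age. The estradiol benzoate group (animals 2, 3, 5 and 8) received 0.15 mg/kg/day, the testosterone group (animals 2, 4, 6 and 8) 1 mg/kg/day, and the vehicle group (animals 3, 4, 5 and 8) sesame oil alone, so every group, vehicle included, lacked ovaries. Each animal was hybridised to a pair of 1-colour CodeLink arrays made from the same cRNA, and each pair was averaged into 1 value for the animal. Of 10399 probes, 7294 carried a single gene symbol, and 7172 of these had enough values to be tested, for 6371 genes. The series asks how an estrogen and an androgen act on gene expression in this vessel, and the direct comparison asks where they act differently.

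Estradiol acts mainly through the nuclear estrogen receptors (Esr1, Esr2) and a membrane receptor (Gper1), and testosterone through the androgen receptor. Testosterone can also be turned into estradiol by aromatase, or reduced to the more potent dihydrotestosterone, so part of what an androgen does in a tissue can run through estrogen receptors. The mesenteric artery is a resistance vessel of smooth muscle and endothelium whose tone is set by sympathetic nerves, vasoactive peptides and prostanoids.

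A level below is the value of the deposited table, on which the middle probe of an array lies near 1 (array medians 0.926 to 0.951), and a difference is the log2 of estradiol benzoate over testosterone. Duplicate arrays of the hormone animals correlated at 0.976 to 0.993. The SD between animals, for the middle probe, was 0.151 log2 units with estradiol benzoate, 0.184 with testosterone and 0.211 with vehicle. Smooth muscle could be checked by only Cnn1 and Smtn of its 9 defining markers, since the others were not tested, and endothelium by 6 of 7. The androgen receptor and the clock genes Per1, Nr1d1 and Npas2 were not tested either. In whole vessels, fewer cells of a type and less RNA per cell cannot be told apart.

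Few probes separated the hormone groups. Among 10228 probes, 3 (0.0293%) were called different at a limma adjusted p under 0.05, all higher with estradiol benzoate: the interleukin receptor gene Il4r, Aff3, and 1 probe that carries no symbol. At an unadjusted p under 0.05 there were 422 probes (4.13%), where 5% of the probes tested is 511.4. Of these, 247 (2.41%) were higher with estradiol benzoate and 175 (1.71%) lower. With the same number of animals a side, 1376 probes (13.5%) passed that unadjusted limit between estradiol benzoate and vehicle, and 1437 (14%) between testosterone and vehicle. These counts share the hormone or vehicle animals with each other. The median size of the difference over genes was 0.0846 log2 units between the hormones, against 0.138 and 0.140 for each of them against vehicle.

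The precision allowed a bound on most genes. The 95% interval of the difference lay within a 2-fold change in either direction for 5859 of 6371 genes (92.0%). For the middle probe that interval reached 0.299 log2 units to either side. Only 36 genes differed by more than 1 log2 unit upwards and 22 downwards, and 30 and 16 of these were among the dimmest 25% of probes.

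Il4r, which encodes the chain shared by the receptors for interleukin 4 and interleukin 13, had the clearest difference of any named gene. Its level was 3.48, 4.63, 4.68 and 3.28 in the estradiol benzoate animals, 1.50, 1.91, 1.46 and 1.58 in the testosterone animals, and 2.83, 1.93, 1.92 and 1.73 with vehicle. The 4 estradiol benzoate animals lay above every other animal. The difference between the hormones was 1.31 ± 0.17 (SE), a 2.47-fold higher level with estradiol benzoate (limma adjusted p = 0.0431). Against vehicle the difference was 0.94 with estradiol benzoate and -0.36 with testosterone, so the vehicle mean lay between the hormones and nearer to testosterone. The call held without vehicle animal 3 and was lost without any other single animal, with adjusted p from 0.0205 to 0.174 and a difference from 1.23 to 1.40.

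Aff3, a nuclear protein of the family that regulates transcription elongation, was read by a dim probe (brighter than 16.5% of those tested). The probe gave 0.120, 0.142, 0.159 and 0.149 with estradiol benzoate and 0.0756, 0.0799, 0.0936 and 0.0858 with testosterone. Vehicle animals, at 0.0783, 0.0902, 0.0878 and 0.0789, overlapped those given testosterone and not those given estradiol benzoate. The difference was 0.77 ± 0.11 (SE; limma adjusted p = 0.0461). Leaving out any of the 12 animals ended the call, at adjusted p from 0.0627 to 0.174. The probe without a symbol was higher by 1.18 ± 0.16 (SE; limma adjusted p = 0.0431), at 0.811, 0.944, 0.737 and 0.636 with estradiol benzoate against 0.284, 0.323, 0.329 and 0.457 with testosterone.

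A pair of genes came next, below an adjusted p of 0.1 but not below 0.05. Rybp, a subunit of a Polycomb repressive complex, was at 10.2, 10.2, 11.5 and 10.5 with estradiol benzoate and at 6.67, 6.60, 7.45 and 6.91 with testosterone. The vehicle animals lay below estradiol benzoate, at 7.22 to 9.19, and 1 testosterone animal reached their range. Its difference was 0.62 ± 0.09 (SE; limma adjusted p = 0.0726). Plod2, the lysyl hydroxylase whose product forms stable collagen cross-links, was at 9.12, 9.42, 11.8 and 11.2 against 7.15, 6.84, 6.05 and 6.83, with vehicle at 7.59 to 8.01. For Plod2 all estradiol benzoate animals were above vehicle and all testosterone animals below it, with a difference of 0.62 ± 0.10 (SE; limma adjusted p = 0.0898).

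**Figure D1:**
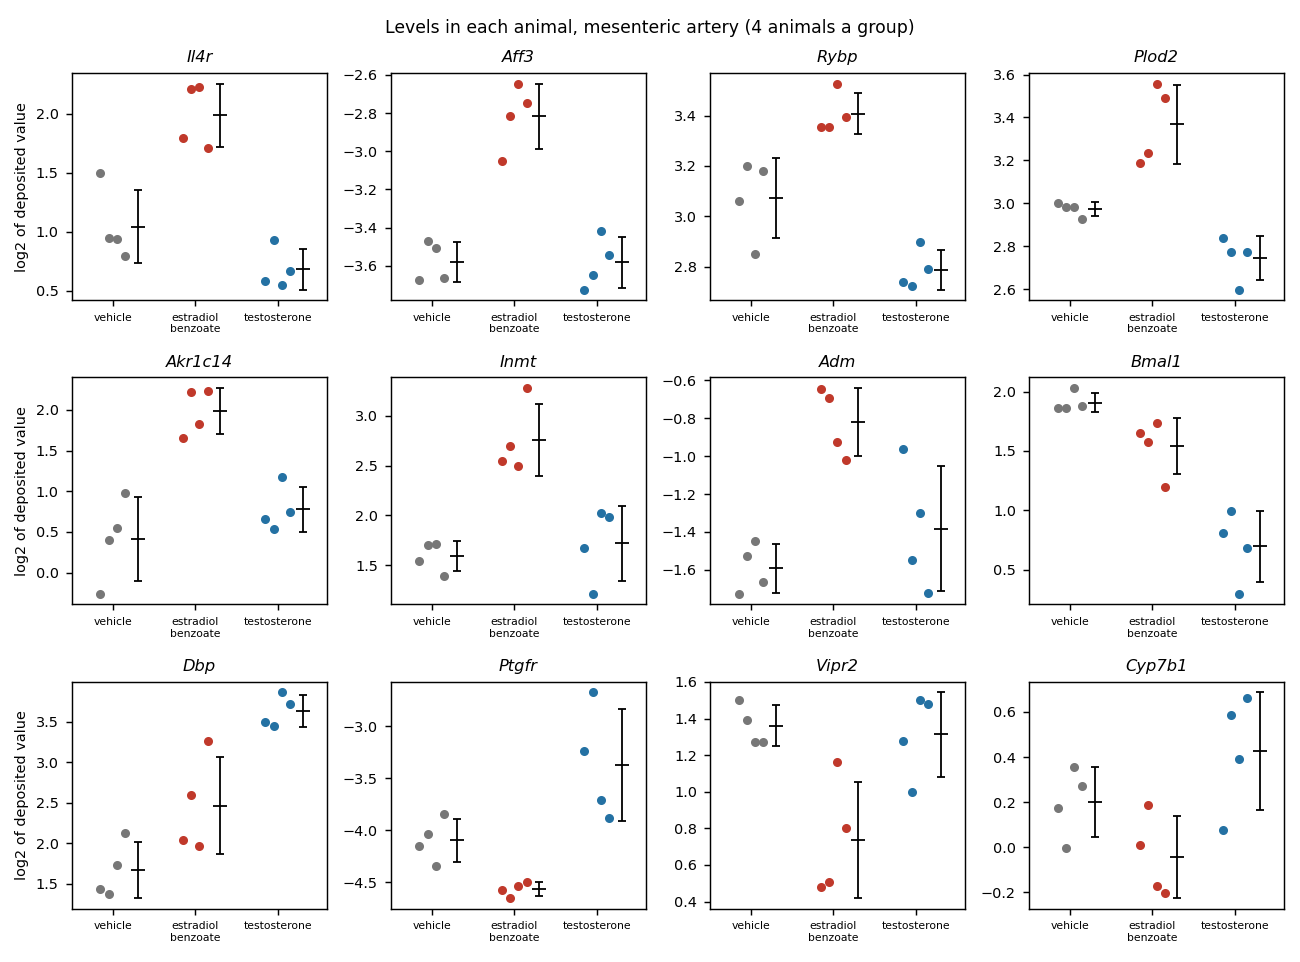
Log2 of the deposited value in each animal for 12 genes, with 4 points a group and the group mean ± SD beside them. Il4r, Aff3, Rybp, Plod2, Akr1c14, Inmt and Bmal1 have all 4 estradiol benzoate animals above all 4 testosterone animals, and Dbp and Ptgfr have them all below. Vertical axes differ between panels and do not start at 0.

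Of the 10109 probes with a value in all 8 hormone animals, 189 (1.87%) had every estradiol benzoate animal above every testosterone animal and 115 (1.14%) had every one below. At an unadjusted p under 0.01 there were 74 of 6371 genes, 55 higher with estradiol benzoate and 19 lower. That is not far above the share such a limit passes by chance. No named gene other than Il4r and Aff3 passed the adjusted threshold between the hormones. Picking genes for a small p between the hormones favours groups that do not overlap. For genes picked that way, here and below, a lack of overlap describes the values and adds no separate support. Over all 6371 genes, 48.5% had a positive difference, 2.59% were higher and 1.65% lower at an unadjusted p under 0.05, and the gene lists below are to be read beside these shares.

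Higher with estradiol benzoate in that group was Inmt, a methyltransferase for indole amines and other amines, with levels of 5.85, 6.50, 5.64 and 9.72 against 3.18, 2.32, 4.07 and 3.96. Its difference was 1.03 ± 0.20 (SE; limma adjusted p = 0.285), and vehicle, at 2.63 to 3.29, lay among the testosterone animals. Slc38a1, a sodium-coupled glutamine transporter, was at 0.251, 0.389, 0.285 and 0.393 against 0.116, 0.172, 0.220 and 0.179, a difference of 0.95. Its 2 dimmer probes gave 0.31 and 0.40, in the same direction and smaller. Raly, an RNA-binding protein, was at 11.2, 12.4, 12.1 and 12.5 against 8.09, 9.17, 7.86 and 5.97, and its 2 probes gave 0.65 and 0.47. Isyna1, which makes inositol phosphate from glucose phosphate, was 0.57 higher, Insyn1 0.68 and Atosa 0.79, each with no overlap between the hormone groups. The genes of this paragraph were picked for a small p between the hormones, so their lack of overlap is not separate support.

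Genes lower with estradiol benzoate were fewer and mostly dim. Tmem178a was at 0.172, 0.150, 0.148 and 0.170 against 0.213, 0.219, 0.291 and 0.263 with testosterone, a difference of -0.61 ± 0.13 (SE; limma adjusted p = 0.285). Dcx, a microtubule-binding protein of migrating neurons, was at 0.821, 0.797, 1.09 and 0.761 against 1.17, 1.34, 1.24 and 1.50, a difference of -0.60. Vehicle animals, at 1.04 to 1.73, covered the testosterone range for Dcx. Slc29a1, the transporter that clears adenosine from outside the cell, was at 0.237, 0.269, 0.295 and 0.274 against 0.403, 0.332, 0.433 and 0.309, a difference of -0.45. Fancc (-0.37) and Rasl10a (-0.35) also had no overlap, whereas Prr5l, Bcan and Prp2l1 had overlapping groups.

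Among 20 tested genes of steroid metabolism, 3 were higher and 1 lower at an unadjusted p under 0.05, beside 2.59% of all genes higher and 1.65% lower; the median difference of the list was 0.03. Akr1c14, the 3-alpha-hydroxysteroid dehydrogenase that inactivates dihydrotestosterone, had the widest difference of the list. Its level was 3.16, 4.67, 3.55 and 4.69 with estradiol benzoate, 1.58, 1.45, 2.25 and 1.68 with testosterone, and 0.834, 1.32, 1.46 and 1.97 with vehicle. Every estradiol benzoate animal was above every other animal, and the testosterone and vehicle animals overlapped. The difference between the hormones was 1.20 ± 0.24 (SE; limma adjusted p = 0.285), and against vehicle the values were 1.57 with estradiol benzoate and 0.36 with testosterone. Sult1a1, a sulfotransferase that conjugates phenols including estrogens, showed the same order: 7.39, 7.26, 6.52 and 9.07 against 4.16, 4.83, 5.77 and 5.49, with vehicle at 3.75 to 5.46. Cyp7b1, which hydroxylates oxysterols and steroids including an estrogenic metabolite of dihydrotestosterone, went the other way, at 1.01, 1.14, 0.888 and 0.868 against 1.05, 1.50, 1.31 and 1.58. Its difference was -0.47, and 1 testosterone animal lay within the estradiol benzoate range. Hsd17b7 was a dim 0.28 higher.

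The steroid receptor genes had a median difference near 0 between the hormones. Of 23 nuclear and membrane receptor genes tested, 1 was higher and 2 lower at an unadjusted p under 0.05, and the list median was 0.03. Esr1 was at 0.222, 0.180, 0.186 and 0.181 with estradiol benzoate and 0.256, 0.211, 0.187 and 0.183 with testosterone, overlapping, with a difference of -0.11 ± 0.12 (SE). A second, dimmer Esr1 probe gave -1.19 ± 0.46 (SE), so the 2 probes agree in sign and not in size. Esr2, with a value in 3 of the 4 testosterone animals, differed by 0.13 ± 0.18 (SE). Pgr, the progesterone receptor and a classical estrogen target, was read by a dim probe at 0.0248, 0.0387, 0.0217 and 0.0344 against 0.0202, 0.0250, 0.0198 and 0.0103. The groups overlapped, and the difference was 0.70 ± 0.26 (SE; limma adjusted p = 0.999). Gper1 differed by -0.33 and the mineralocorticoid receptor Nr3c2 by -0.20.

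Genes known to respond to estrogen in other tissues were higher with estradiol benzoate more often than lower. Of 23 tested, 16 had a positive difference, 6 were higher and 1 lower at an unadjusted p under 0.05, and the median was 0.21. Over all genes 48.5% were positive, 2.59% higher and 1.65% lower, with a median of -0.00. The list holds Il4r and Aff3, which earlier results of these same arrays had put there, so it is not independent evidence of its direction. Without those 2 genes, 14 of 21 were positive, 4 were higher and 1 lower (Sfrp4), and the median was 0.20. By animal those 21 genes deviated by 0.04, 0.14, -0.07 and 0.19 with estradiol benzoate. With testosterone they deviated by -0.08, 0.03, -0.08 and -0.25, so the groups overlapped. Cxcl12, the chemokine that retains stem cells and lymphocytes, was at 42.7, 45.6, 48.1 and 44.3 with estradiol benzoate against 29.9, 38.2, 31.9 and 34.6 with testosterone. These groups did not overlap, the difference was 0.43 ± 0.10 (SE; limma adjusted p = 0.328), and vehicle spanned 35.4 to 43.6. S100g, the vitamin D and estrogen target that binds calcium in the uterus and gut, had a very dim probe and a difference of 1.55 ± 0.46 (SE). Of 14 genes known to respond to androgen, 9 were positive, 2 higher (Cdkn1a and Herc3) and 1 lower (Gucy1a1), and the median was 0.05. Herc3 was the clearest of those after Cdkn1a, at 0.885, 0.862, 0.878 and 0.947 against 0.664, 0.615, 0.735 and 0.722.

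In the clock, 1 activator was higher with estradiol benzoate and 2 outputs were lower, none past the adjusted threshold. The transcription factor Bmal1 drives its own repressors, and Dbp and Tef are outputs that peak when Bmal1 is low. Bmal1 was at 3.15, 2.98, 3.34 and 2.30 with estradiol benzoate, 1.75, 2.00, 1.23 and 1.61 with testosterone, and 3.63, 3.64, 4.09 and 3.67 with vehicle. The 3 groups did not overlap, with testosterone furthest from vehicle. Dbp was at 4.10, 6.03, 3.91 and 9.63 with estradiol benzoate, 11.2, 10.9, 14.6 and 13.1 with testosterone, and 2.71, 2.58, 3.32 and 4.38 with vehicle. Testosterone animals were again the furthest from vehicle, and 2 of the 4 estradiol benzoate animals lay below the highest vehicle animal.

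Between the hormones, Bmal1 differed by 0.85 ± 0.15 (SE; limma adjusted p = 0.219) and Dbp by -1.17 ± 0.27 (SE; limma adjusted p = 0.337). Against vehicle, Bmal1 differed by -0.36 with estradiol benzoate and -1.21 with testosterone, and Dbp by 0.80 and 1.96. Only the testosterone values passed the threshold there (limma adjusted p = 0.0282 for Bmal1 and 0.0297 for Dbp), but the difference between the hormones did not, so these genes are not shown to respond to testosterone alone. Tef was at 0.0924, 0.151, 0.189 and 0.238 against 0.226, 0.221, 0.416 and 0.330, a difference of -0.86, with 1 estradiol benzoate animal inside the testosterone range. Nr1d2, a repressor of Bmal1, differed by -0.56 ± 0.30 (SE) on 3 testosterone animals, and Bhlhe40, another repressor in the clock, by -0.34 ± 0.17 (SE). Of 10 clock genes tested, 7 had a negative and 3 a positive difference, and 1 was higher and 2 lower at an unadjusted p under 0.05. The hour at which each animal was killed is not given in the sources used here, so hormone and hour cannot be told apart for these genes.

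The 100 bases before the transcription start are shown for Il4r and Bmal1, because both genes were higher with estradiol benzoate and both windows hold AGGTCA, the core bound by ROR receptors, which contains GGTCA, an arm of the estrogen response element. The sequences are those of RefSeq on GRCr8, plus strand, at chr1:189545675-189545774 for Il4r and chr1:176766228-176766327 for Bmal1, and capitals mark the match.
Il4r: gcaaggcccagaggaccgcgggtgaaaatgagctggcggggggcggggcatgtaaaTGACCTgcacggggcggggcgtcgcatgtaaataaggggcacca
Bmal1: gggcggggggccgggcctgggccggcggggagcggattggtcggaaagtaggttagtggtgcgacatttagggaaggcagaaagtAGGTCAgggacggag
The match begins 44 bases before the start in Il4r, on the other strand, and 15 bases before it in Bmal1. Searched on both strands from 250 bases before to 50 after the start, AGGTCA was in 6 of the 47 matched genes higher at an unadjusted p under 0.01 (12.8%), in 4 of 16 lower genes and in 12.5% of 5251 tested genes. Over all 27457 promoters of the table its share was 15.7%. The shorter GGTCA was in 18 of the 47 higher genes (38.3%) and 9 of the 16 lower genes (56.2%), beside 38.1% of tested genes. Neither a full palindromic estrogen response element nor a full androgen response element was in any window of the 5251 tested genes. Their absence from these 63 windows was therefore fixed and says nothing about these genes. Over all promoters they were found in 0.0255% and 0.00728%. The AP-1 site TGANTCA was in 5 of 47 higher genes (10.6%), in none of the 16 lower genes and in 4.74% of tested genes. The E-box CACGTG was in 4 of 47 higher genes (8.51%), 3 of 16 lower genes (18.8%) and 8.87% of tested genes. The D-box TTATGNAA was in none of either group and in 1.90% of tested genes. A match says only that these letters are in the window.

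Genes of vascular tone had differences in both directions, none past the adjusted threshold. Of 26 vasoactive peptide and receptor genes, 2 were higher and 1 lower at an unadjusted p under 0.05, with a median of -0.05. Of 29 adrenergic and prostanoid genes, 2 were higher and 1 lower, with a median of -0.06. Adm, the vasodilator peptide adrenomedullin, was at 0.640, 0.619, 0.526 and 0.494 with estradiol benzoate and 0.514, 0.342, 0.405 and 0.303 with testosterone. Only 1 testosterone animal reached the estradiol benzoate range, vehicle lay at 0.302 to 0.366, and the difference was 0.56 ± 0.16 (SE; limma adjusted p = 0.589). Vipr2, a receptor for the dilator peptides VIP and PACAP, was at 1.39, 1.42, 2.24 and 1.74 against 2.42, 2.00, 2.83 and 2.78, a difference of -0.58. Vehicle, at 2.41 to 2.84, lay with testosterone for Vipr2.

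Among receptors for constrictors, Avpr1a, the vascular vasopressin receptor, was at 2.81, 2.10, 2.77 and 2.51 with estradiol benzoate and 1.83, 1.94, 2.04 and 1.79 with testosterone, without overlap. Its difference was 0.42 ± 0.13 (SE). Adra2a, the alpha-2A adrenergic receptor, was at 1.41, 1.67, 1.59 and 1.26 against 1.05, 0.998, 0.984 and 0.966, a difference of 0.56 ± 0.14 (SE). A dimmer probe gave a like size with a wide error, 0.57 ± 0.38 (SE), and another gave 0.07 ± 0.13 (SE), so the probes disagree. Ptgfr, the receptor for prostaglandin F2 alpha, was read by a dim probe, at 0.0418, 0.0396, 0.0430 and 0.0441 against 0.106, 0.157, 0.0766 and 0.0679. The difference was -1.20 ± 0.22 (SE, limma adjusted p = 0.219). The vehicle mean lay between the hormones, but the vehicle animals, at 0.0491 to 0.0694, overlapped the testosterone animals. Adra1a, a constrictor receptor, had a very dim probe and a difference of 1.14 ± 0.50 (SE). Of 35 ion channel genes 1 was higher and 1 lower, and of 24 genes of cyclic nucleotide signalling none was higher and 2 were lower.

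Immediate-early genes, which respond within minutes to growth factors, stretch and handling, were mostly higher with estradiol benzoate than with testosterone: 18 of 26 had a positive difference, beside 48.5% of all genes, and the median was 0.32. At an unadjusted p under 0.05, 6 were higher (Klf4, Fosb, Ier2, Rgs2, Egr1 and Gadd45a) and 1 was lower (Plk2), beside 2.59% and 1.65% of all genes. Fosb was at 0.185, 0.364, 0.226 and 0.331 with estradiol benzoate and at 0.164, 0.157, 0.159 and 0.162 with testosterone, a difference of 0.73 ± 0.20 (SE; limma adjusted p = 0.589). The vehicle animals, at 0.103 to 0.161, lay with or below testosterone. Averaged over the list, the animals deviated from the mean of all 12 by 0.02, 0.34, 0.17 and 0.26 with estradiol benzoate and by 0.12, -0.01, -0.02 and -0.24 with testosterone, so 1 testosterone animal exceeded 1 estradiol benzoate animal. Without testosterone animal 8 the median of the list was 0.16, and without estradiol benzoate animal 8 it was 0.21. Egr1, at 0.428 to 0.748 with estradiol benzoate, overlapped testosterone at 0.227 to 0.480, and Fos differed by 0.36 ± 0.36 (SE).

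Genes that glucocorticoids raise were also mostly higher with estradiol benzoate: 13 of 16 were positive, 4 were higher and none lower at an unadjusted p under 0.05, and the median was 0.31. The shares over all genes were again 48.5% positive, 2.59% higher and 1.65% lower. The 4 were Sult1a1, the cell cycle inhibitor Cdkn1a, the G-protein brake Rgs2 and the transcription factor Cebpd; the first 3 also stand in other lists. Rgs2 was at 5.28, 5.10, 6.27 and 5.66 against 3.91, 4.58, 3.99 and 4.86, and Cebpd at 5.41, 6.64, 8.26 and 6.82 against 5.26, 4.52, 4.68 and 4.32. Both had all estradiol benzoate animals above all testosterone animals. Vehicle spanned both groups for Cebpd, at 4.11 to 8.35. For Rgs2 vehicle lay at 4.30 to 6.84, which covered the estradiol benzoate animals, and the testosterone animals at 3.91 and 3.99 were below it. Without estradiol benzoate animal 3 the median of this list was 0.19, and without testosterone animal 4 it was 0.20.

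**Figure D2:**
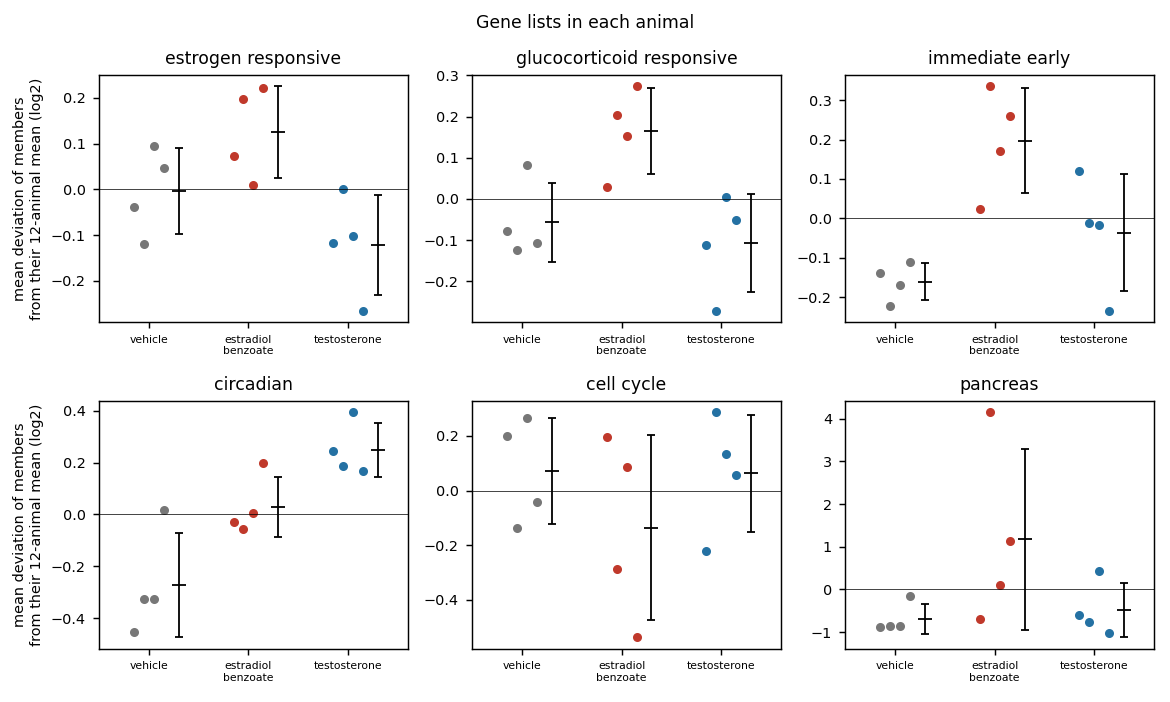
Mean deviation of the members of 6 gene lists from their mean over the 12 animals, in log2 units, for each animal with the group mean ± SD. Estradiol benzoate animal 3 stands at 4.16 on the pancreas list, apart from every other animal. The estrogen list is shown with Il4r and Aff3, and without them the hormone groups overlap. Vertical axes differ between panels.

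Effects of a single hormone were looked for in 2 ways. No probe was called between the hormones and in exactly 1 of the comparisons with vehicle, because no probe (0%) was called between estradiol benzoate and vehicle, and the 5 (0.0489%) called between testosterone and vehicle (Bmal1, Dbp, Bhlhe40, Tmem86a and a probe without a symbol) did not include the 3 above. At an unadjusted p under 0.05 the counts for these comparisons were the 1376 and 1437 given above. The place of the vehicle mean between the hormone means was then read for the 74 genes at an unadjusted p under 0.01, as a description. Their number is not far above what such a limit passes by chance. For 30 genes vehicle lay no more than 0.25 of the way from the testosterone mean to the estradiol benzoate mean, or beyond testosterone, so that the difference was on the estradiol benzoate side, and 23 of these were higher with estradiol benzoate. For 11 genes vehicle lay at least 0.75 of the way, or beyond estradiol benzoate, 7 of them higher with estradiol benzoate than with testosterone. The other 33 lay between.

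On the estradiol benzoate side, Aff3 and Atosa had testosterone means nearest to vehicle, at -0.00 and 0.02, against 0.76 and 0.81 with estradiol benzoate. Inmt (1.16 with estradiol benzoate against 0.13 with testosterone), Akr1c14 (1.57 against 0.36) and Slc38a1 (1.20 against 0.25) had small positive values with testosterone as well. Ahcyl2, a relative of the enzyme that hydrolyses S-adenosylhomocysteine, was at 1.71, 1.75, 1.60 and 1.71 against 1.36, 1.41, 1.38 and 1.23 with testosterone and 1.23 to 1.48 with vehicle, a difference between the hormones of 0.33.

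On the testosterone side, Klf4 and Cdkn1a, 2 genes of smooth muscle state and growth arrest, had bright probes. Klf4, a transcription factor that represses smooth muscle contractile genes, was at 4.18, 4.79, 4.86 and 4.05 with estradiol benzoate, 3.46, 3.68, 3.51 and 3.07 with testosterone and 4.62 to 5.33 with vehicle. All testosterone animals were below all others, with -0.54 against vehicle and -0.16 for estradiol benzoate. Cdkn1a, which halts the cell cycle downstream of p53, was at 4.95, 3.65, 4.86 and 3.99 with estradiol benzoate and 3.36, 2.82, 2.23 and 1.77 with testosterone, with vehicle at 2.90 to 5.53. Its values against vehicle were 0.10 and -0.71, and the difference between the hormones was 0.81. Its second, dimmer probe gave 0.75 between the hormones, but 0.50 with estradiol benzoate and -0.25 with testosterone against vehicle, so by that probe most of the difference lay on the other side. Hip1, a clathrin adaptor, had 3 probes, which gave 0.70, 0.62 and 0.73 between the hormones but disagreed on the place of vehicle. By the brightest, testosterone was -0.71 and estradiol benzoate -0.01 from vehicle. The second put the difference on the estradiol benzoate side (-0.03 with testosterone and 0.59 with estradiol benzoate), and the third lay between, at -0.49 and 0.24. Syn2 and Kcnab3 followed the same order on very dim probes.

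**Figure D3:**
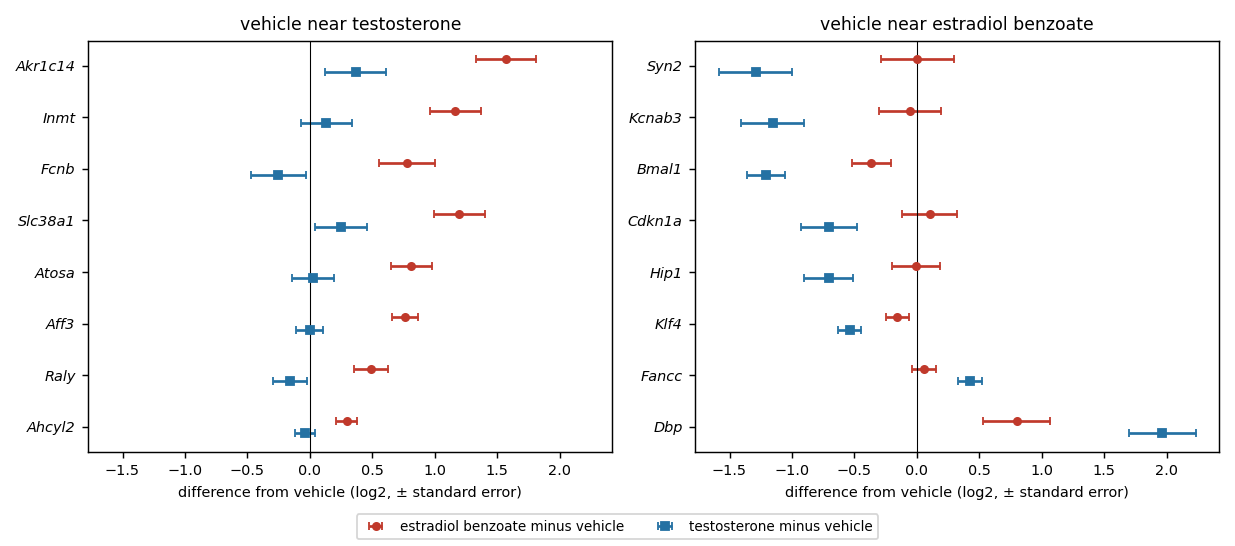
Difference from vehicle (log2 ± SE of the fit) with each hormone for the 16 genes named by the place of vehicle, each by its brightest probe; both differences of a gene share the vehicle animals. On the left testosterone lies nearer to 0 than estradiol benzoate, which lies above it. Testosterone is furthest from 0 there for Akr1c14 (0.36), Fcnb (-0.25) and Slc38a1 (0.25). On the right estradiol benzoate lies nearer to 0 than testosterone, though away from 0 for Dbp at 0.80 and Bmal1 at -0.36.

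What the hormones shared was read from the mean of both against vehicle, a contrast built to be orthogonal to the difference between them. It called 5 probes (0.0489%; limma adjusted p under 0.05) and had 1768 (17.3%) at an unadjusted p under 0.05. Junb, a subunit of AP-1, was at 0.492, 0.580, 0.416 and 0.359 with estradiol benzoate, 0.536, 0.346, 0.418 and 0.294 with testosterone and 0.141 to 0.210 with vehicle. All 8 hormone animals were above vehicle by a mean of 1.22 ± 0.18 (SE; limma adjusted p = 0.0483), and the hormones differed by 0.22 ± 0.21 (SE). Bhlhe40 (1.05) and Tmem86a (0.75) rose as well, with smaller means for estradiol benzoate than for testosterone. Against vehicle Bhlhe40 differed by 0.88 with estradiol benzoate and 1.22 with testosterone, and Tmem86a by 0.62 and 0.89. Only the testosterone values were called. Between the hormones they differed by -0.34 ± 0.17 (SE) and -0.27 ± 0.125 (SE), neither called. For Bhlhe40 every estradiol benzoate animal lay below every testosterone animal. Pde2a, a phosphodiesterase that cyclic GMP stimulates, fell by 0.73. Its level was 0.277, 0.230, 0.294 and 0.254 with estradiol benzoate, 0.265, 0.266, 0.263 and 0.227 with testosterone and 0.392 to 0.548 with vehicle. Between the hormones Pde2a differed by 0.04 ± 0.12 (SE). Of the 12 genes named for the shared contrast, only Dbp and Bmal1 also had an unadjusted p under 0.05 between the hormones.

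**Figure D4:**
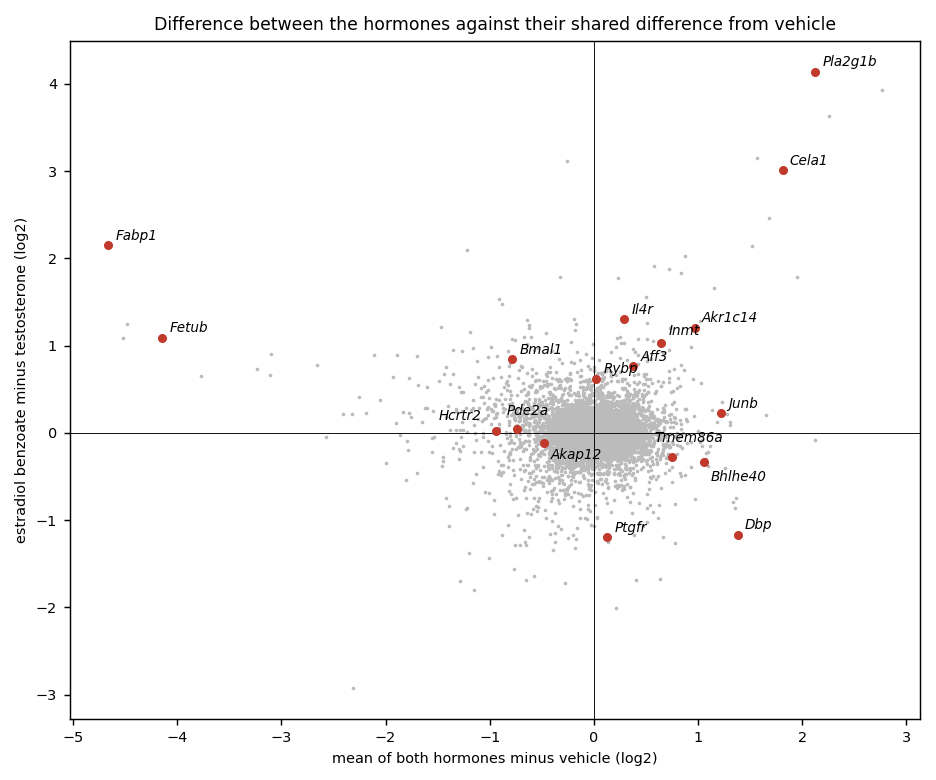
Each of the 10228 tested probes by the mean of both hormones minus vehicle (horizontal, log2) and estradiol benzoate minus testosterone (vertical, log2), with 18 named genes marked. Junb, Pde2a, Hcrtr2 and Akap12 lie near the horizontal line, Il4r, Rybp and Ptgfr near the vertical one, and the pancreatic genes Pla2g1b and Cela1 at the upper right.

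The gene lists for the vessel's own cell types, which are wider than the defining markers, had medians near 0. Leaving out 1 animal gave medians of -0.15 to 0.06 for smooth muscle and -0.01 to 0.03 for endothelium. Of 15 smooth muscle genes 1 was higher and 1 lower at an unadjusted p under 0.05, with a median of -0.06, and of 25 endothelial genes 1 was higher and none lower, with a median of 0.00. Pdgfrb, the mural cell receptor for platelet-derived growth factor, was at 9.76, 9.69, 11.7 and 12.3 against 7.62, 8.01, 7.93 and 7.54, a difference of 0.47, and a second, dimmer probe gave 0.45 ± 0.46 (SE). Rgs4, another brake on G-protein signalling, differed by -0.43. Lyve1, a marker of lymphatic endothelium and of some macrophages, was at 12.8 to 23.7 against 7.66 to 17.1, a difference of 0.62. In the extracellular matrix list, 3 of 34 genes were higher (Plod2, Spp1 and Col6a1) and 2 lower (Tnc and Postn). Spp1, the matrix cytokine osteopontin, was at 1.76, 2.34, 1.49 and 2.97 against 1.30, 1.20, 1.21 and 1.41, and Tnc at 2.08, 2.01, 3.68 and 2.63 against 3.82, 11.1, 4.31 and 3.65, where 1 estradiol benzoate animal just overlapped.

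RNA of a neighbouring organ differed between the animals compared. The pancreas lies in the mesentery, and 17 of 21 tested pancreatic genes were higher with estradiol benzoate, 4 of them at an unadjusted p under 0.05, with a median of 1.83. The nuclease gene Dnase1, which many tissues express, was lower at that limit, with a difference of -0.26 and no overlap. The excess sat in animals: Cela1, an elastase, was at 0.131, 11.6, 0.188 and 0.597 with estradiol benzoate, and at 0.0805, 0.0391, 0.229 and 0.0563 with testosterone. The summed level of the list was 133 in estradiol benzoate animal 3, 4.50 to 9.64 in the other 3, and 4.00 to 5.86 in the testosterone animals. Values at or below 0 were treated as missing, and a missing marker adds nothing to the summed level of its animal. Without animal 3 the median of the list was 0.44. Without that animal Il4r differed by 1.23 ± 0.19 (SE), Aff3 by 0.77 ± 0.12 (SE), Akr1c14 by 1.12 ± 0.27 (SE) and Fosb by 0.58 ± 0.20 (SE). Estradiol benzoate animal 8, with a mean deviation of 1.14 on the pancreas list, stayed in these fits. The part of pancreatic RNA in these differences was not tested. The hepatocyte list summed to 9.40 to 12.0 with estradiol benzoate and 8.55 to 10.3 with testosterone, but reached 57.6 in 1 vehicle animal, which enters only the comparisons with vehicle and the shared spread.

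**Figure D5:**
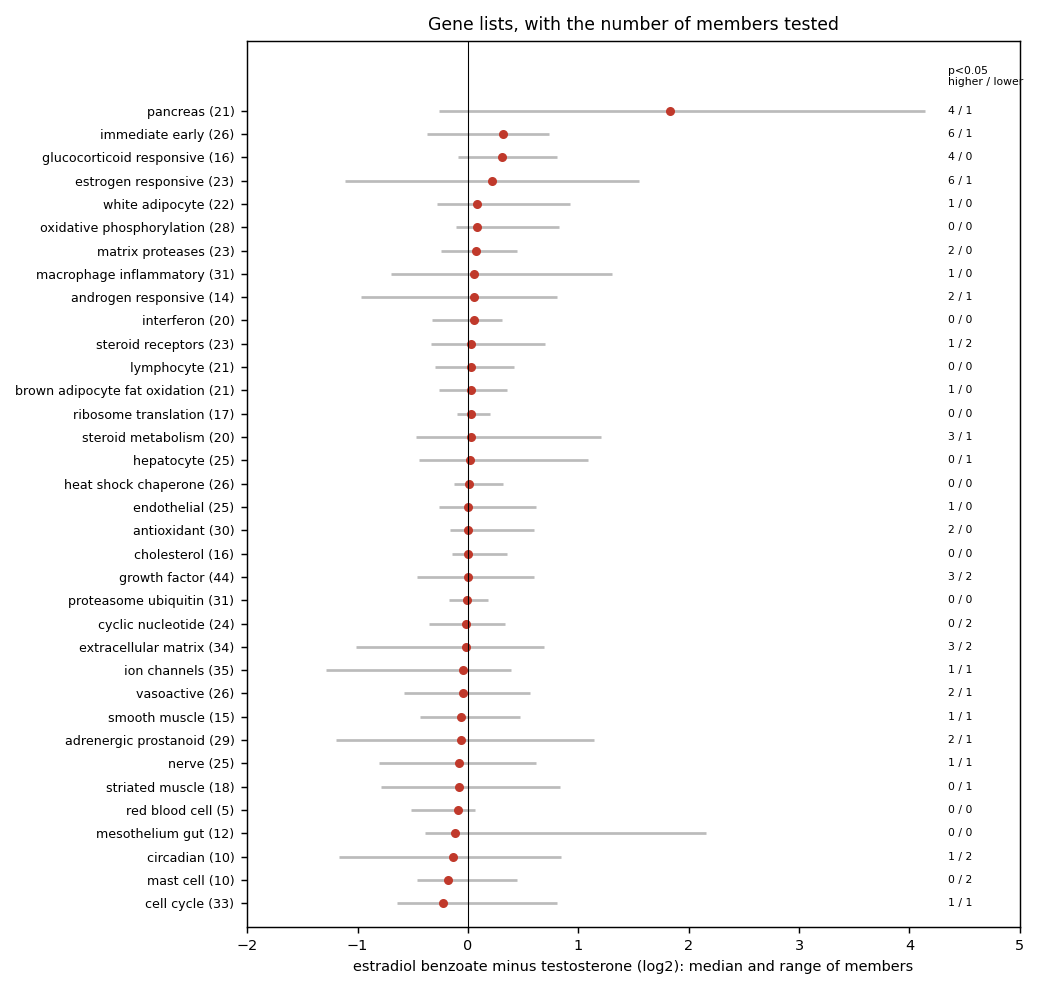
Median (point) and range (line) of estradiol benzoate minus testosterone in log2 units over the tested members of 35 gene lists, with the number tested in brackets and, at the right, the members at an unadjusted p under 0.05 in each direction. The pancreas list lies furthest right at 1.83 and the cell cycle list furthest left at -0.23.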

How the data were processed

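The authors deposited 1 intensity per probe for each of 24 CodeLink arrays (linear scale; the normalization is not given in the sources used here, and array medians of 0.926 to 0.951 point to scaling by the array). The members, lists and tests were chosen with earlier results of these data known. Values at or below 0 (327) and blanks (152 to 665 an array) were treated as missing, log2 was taken, and the pair of arrays of an animal was averaged. Probes measured in 3 or more animals per group (10228) were fitted with limma 3.58.1 (R 4.3.3), a group-means model over all 12 animals with Benjamini-Hochberg adjustment over all probes; the vehicle animals lend their spread. A gene was given by its brightest probe, and symbols came from the platform annotation (7284 of 7294 matched by gene ID). Probes with several symbols (88) or none (3017) stayed in the fit and, apart from the called one, were not named. The call threshold was an adjusted p of 0.05. The fit was tested on simulated data. Only 4 animals a side limit the precision.

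Named genes were the called genes, filled to 12 each way by p, up to 4 members of each list, up to 8 on each side of vehicle, up to 6 each way of the shared contrast, and a fixed list. The labels do not say whether a shared animal number pairs the groups, and the main fit did not pair them. Correlations of same-numbered animals in different groups ran from -0.116 to 0.298. The highest was that of estradiol benzoate animal 2 with testosterone animal 2. Correlations of differently numbered animals ran from -0.277 to 0.239. Alternatives covered scaling, filters, duplicates, weights, prior, a replicate block and leaving out each animal.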

Additional observations from a re-analysis of the deposited data

Results flagged for a closer look

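The 3 probes called between the hormones passed a test of the difference itself in the main fit. They were Il4r (1.31 log2 units), Aff3 (0.77) and a probe without a symbol (1.18). Against vehicle, the probe without a symbol differed by 0.41 with estradiol benzoate and -0.77 with testosterone. None of the 3 stayed called with only the 8 hormone animals, quantile normalization, the AB arrays alone or the replicate block. Leaving out 1 animal kept at most 1 of them.

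Single animals stood apart from the other 3 of their group in 5 of 123 gene and group combinations and in 3 of 105 list and group combinations; chance flags about 1 in 20. Of the hormone animals, testosterone animal 8 was at -2.14 log2 units for Pde2a (others -1.93 to -1.91), and estradiol benzoate animal 5 at -2.89 for Tmem86a (others -2.64 to -2.60). Of the vehicle animals, animal 5 was at 2.03 for Bmal1 (others 1.86 to 1.88), and animal 8 at -0.87 for Pde2a (others -1.35 to -1.31) and -1.22 for Slc29a1 (others -1.64 to -1.63). As mean deviations of a list, vehicle animal 4 was at 0.12 for the adrenergic and prostanoid genes, vehicle animal 5 at 0.062 for the brown fat and fat oxidation genes, and vehicle animal 8 at -0.16 for the pancreas genes.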

How the results depend on the processing

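The count of 3 probes between the hormones was 0 with only the 8 hormone animals, with quantile normalization, with the AB arrays alone and with the replicate block, 1 with the AA arrays alone, 13 with weights per animal and 40 with all 24 arrays and the animal as a random effect; leaving out 1 animal gave 0 to 1. The count at an unadjusted p under 0.05 (422) was 734 with weights and 634 with the replicate block, and 311 to 509 leaving out 1 animal. The count of 5 for both hormones against vehicle was 1 with low values set to the lowest above 0, 380 with the random effect, 10 with a trended robust prior, 2 with weights and 0 with the replicate block, and 0 to 65 leaving out 1 animal (0 without vehicle animal 3 or testosterone animal 6, 65 without vehicle animal 5). The count of probes for a single hormone was 30 with the random effect and 0 in every other setting run. Of 2845 other comparisons of a result with an alternative, 2657 kept their side of the threshold or their size, 102 lost a call, 51 gained one, 35 moved and 0 reversed. Reversed means a change of sign for a gene at an unadjusted p under 0.05 in the main fit. For any other gene a change of sign counts as moved, as for the clock gene Per2, at -0.32 to 0.22 between the hormones. List medians were compared by size only, and some changed sign, as for smooth muscle (-0.15 to 0.06). Under every setting run, Il4r stayed higher with estradiol benzoate, at 1.11 to 1.40. The replicate block takes animals of the same number as belonging together, which the labels do not state. Dim probes, such as those of Aff3, Ptgfr, Pgr and S100g, limit what their differences show: with 0.1 added before log2, Aff3 differed by 0.40. With only the hormone animals, comparisons with vehicle could not be run. The cause of these changes was not tested.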

Other observations

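Cell cycle genes ran mostly lower with estradiol benzoate than with testosterone: 28 of 33 had a negative difference and the median was -0.23, but 1 was higher (Cdkn1a, an inhibitor) and 1 lower (Kif2c, a mitotic kinesin) at an unadjusted p under 0.05. By animal the list deviated by 0.19, -0.29, 0.09 and -0.54 with estradiol benzoate and by -0.22, 0.29, 0.13 and 0.06 with testosterone, so the groups overlapped. Without estradiol benzoate animal 8 the median was -0.08, and without testosterone animal 4 it was -0.15. Prc1, which bundles the spindle midzone, was at 6.28, 3.50, 7.55 and 3.77 against 4.87, 10.3, 7.69 and 8.67.

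Mast cell genes were lower with estradiol benzoate in 8 of 10 cases, with a median of -0.18. Without testosterone animal 8, whose mean deviation was 0.32 beside -0.13 to 0.02 in the other testosterone animals, the median was -0.09, and without estradiol benzoate animal 2 it was -0.11. The mast cell proteases Mcpt4 (0.0857, 0.117, 0.127 and 0.126 against 0.140, 0.134, 0.136 and 0.210) and Cpa3 (1.65, 2.40, 1.85 and 2.02 against 2.83, 1.90, 2.73 and 3.63) differed by -0.44 and -0.46. Genes of oxidative phosphorylation were higher with estradiol benzoate in 23 of 28 cases by a median of 0.08, and none had an unadjusted p under 0.05. In the fat list, 15 of 22 genes were positive and 7 negative, the median was 0.08, and only Acly had an unadjusted p under 0.05. That median was 0.01 without testosterone animal 4, 0.04 without animal 8, 0.16 without animal 2, 0.22 without animal 6, and 0.19 without estradiol benzoate animal 5. Its 4 members of lowest p were the enzymes of fatty acid synthesis Acly (26.8, 21.8, 16.9 and 17.4 against 11.2, 18.3, 8.82 and 7.33), Acaca, Me1 and Fasn, which differed by 0.92, 0.49, 0.71 and 0.48, with overlapping groups; the summed level of that list was 225 to 268 with estradiol benzoate and 188 to 237 with testosterone. The part of fat left on the vessels in these values was not tested. Growth factor genes and their receptors were evenly split, with 22 positive and 22 negative and a median of 0.00; at an unadjusted p under 0.05, 3 were higher (Pdgfrb, Egfr and Angpt2) and 2 lower (Fgfr2, -0.38, and Bmp4, -0.46). Angpt2, a vessel growth factor, was at 0.758, 0.812, 0.754 and 0.886 against 0.687, 0.511, 0.502 and 0.671, without overlap, and Egfr at 0.345, 0.401, 0.424 and 0.395 against 0.256, 0.318, 0.330 and 0.318.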
